A study of Mus musculus with 9 samples.

Results

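Of the 60823 probes read on these arrays of mouse aorta, symbols were looked up only for the 50 probes with 10 spots. Gpi1 and Gamt are 2 of the 49 genes named in this way. They were chosen by their names and probes: Gamt as the probe A_51_P484869 (transcript NM_010255) and Gpi1 as the probe with 10 spots per array that is listed under a RefSeq transcript of the gene (A_51_P426886, transcript NM_008155). Both were picked with their intensities on these same arrays already known, so their levels and group differences are given as a description and without a p-value. Intensity means the brightness of a spot after the scanner software subtracted background and evened out position effects, in arbitrary units.

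The study profiled aortas of male C57BL/6J mice, 9 in all with 1 array per animal and 3 animals per group, to ask by its title what an inhibitor of the peptidase DPP-4 does to transcripts of the obese aorta. Vehicle mice were C57BL/6J with no diet named in the labels. DIO mice (diet-induced obesity) received a high-fat diet for 4 months and no drug. DIO+sitagliptin mice were fed a high-fat diet, for a length the labels do not give, with oral sitagliptin at 3 mg/kg per day. No age, and no route or composition of the vehicle, is given. The RNA came from whole aorta, so fewer cells of a type and less RNA per cell cannot be told apart.

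Gpi1 encodes glucose-6-phosphate isomerase, which converts the phosphorylated glucose made by hexokinase to the fructose form and so admits it to glycolysis. Glycolysis supplies much of the ATP of endothelial and vascular smooth muscle cells. Gamt encodes guanidinoacetate N-methyltransferase, which makes creatine by moving a methyl group from S-adenosylmethionine onto guanidinoacetate, the product of Gatm. Creatine kinases charge creatine to phosphocreatine, which restores ATP during contraction. The pair thus belongs to separate routes of ATP supply, and other genes of these routes were sought only among the 50 probes looked up. Of 32 genes listed for glycolysis and gluconeogenesis only Gpi1, and of 7 listed for creatine synthesis, transport and kinases only Gamt, had a probe among these. None of the 17 genes of the pentose phosphate and hexosamine branches, of the 14 genes of the S-adenosylmethionine cycle or of the 5 glucose and lactate transporters had one. None of the 47 listed markers of smooth muscle, endothelium, fibroblasts, fat, striated muscle, leukocytes, blood or nerve had one either, so the tissue label was not checked against markers.

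Of the whole series, 7 arrays were scanned on 12 November 2020 and 2, vehicle 3 and DIO+sitagliptin 3, on 20 November 2020. Those 2 arrays had the lowest median intensities, 12.8 and 13.5 units against 19.4 to 37.6 on the others. The share of spots marked well above background ran from 61.7% to 82.9%. Background was judged by 15 probes that the array design names NEGATIVE, whose highest member read 25.1 to 48.6 units depending on the array.

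Gpi1 was dim on all 3 treated arrays and varied widely within both other groups. It read 104.0, 54.7 and 88.9 units in vehicle 1, 2 and 3. It read 135.9, 88.3 and 32.9 units in DIO 1, 2 and 3. It read 45.1, 38.5 and 30.6 units in DIO+sitagliptin 1, 2 and 3. Vehicle and DIO each held 2 bright arrays and 1 dim array, while the 3 treated arrays were all dim. DIO 3 was as dim as the treated arrays, which places 1 untreated obese aorta inside their range.

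On DIO 3 and the 3 treated arrays Gpi1 read about as bright as the highest NEGATIVE probe. The highest of those read 48.6 units on DIO+sitagliptin 1, 37.3 on DIO+sitagliptin 2, 30.1 on DIO+sitagliptin 3 and 31.7 on DIO 3. Gpi1 stood at 0.93, 1.03, 1.02 and 1.04 times these values, in that order. It was thus below the highest NEGATIVE probe on DIO+sitagliptin 1 and just above it on the other three. On the 5 remaining arrays it stood at 1.34 times on vehicle 2 and at 2.16 to 3.84 times on vehicle 1, vehicle 3, DIO 1 and DIO 2. Single NEGATIVE spots outshone the Gpi1 mean on these 4 arrays only: 6 of 45 on DIO+sitagliptin 1, 2 of 45 on DIO 3 and 1 of 45 on each of the other treated arrays, and 0 of 45 elsewhere. The NEGATIVE probe in the middle of the 15 was dimmer, so that Gpi1 read 1.80 to 67.3 times it across the 9 arrays.

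Gamt was brighter than the highest NEGATIVE probe on all 9 arrays, with all 10 spots above it on each. It read 73.6, 157.3 and 77.0 units in vehicle 1, 2 and 3. It read 127.8, 96.0 and 117.2 units in DIO 1, 2 and 3. It read 66.1, 128.3 and 152.2 units in DIO+sitagliptin 1, 2 and 3. The 3 DIO readings lay between the extremes of both other groups, and each of those groups held readings at the low and at the high end. Against the highest NEGATIVE probe Gamt stood at 1.36 times on DIO+sitagliptin 1, its lowest ratio, and at 5.06 times on DIO+sitagliptin 3, its highest.

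**Figure D1:**
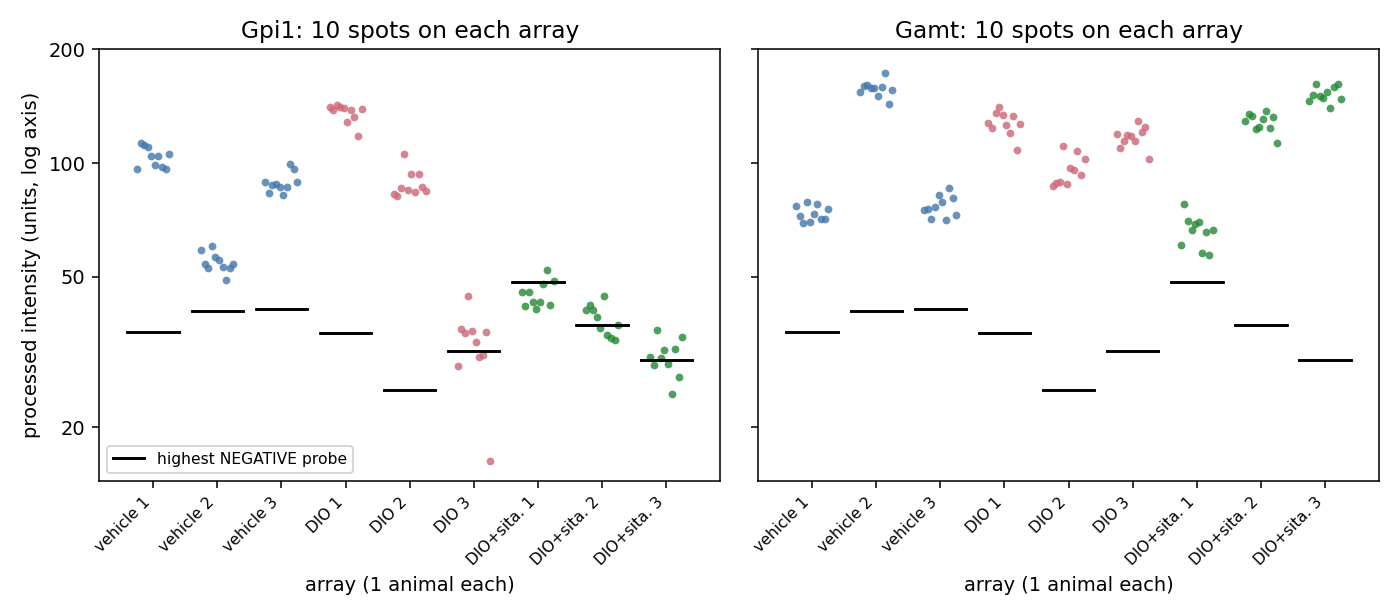
Processed intensity (log axis, arbitrary units) of the 10 replicate spots of Gpi1 (left) and Gamt (right) on each of the 9 arrays, coloured by group, with a black bar at the highest NEGATIVE probe of that array. The Gpi1 spots straddle the bar on DIO 3 and on the 3 treated arrays, and lie above it on the other 5, while all Gamt spots lie above it on every array.

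The 10 spots of a probe on one array repeat the same RNA and show how exactly it was read. For Gpi1 the coefficient of variation over spots was 5.62% to 11.2% on 8 arrays and 22.0% on DIO 3, where the spots ran from 16.2 to 44.4 units. For Gamt it was 4.69% to 9.54%. Of 90 spots per gene, all 90 were marked well above background, a mark that 22.2% to 71.1% of NEGATIVE spots per array also received, and 0 were saturated. The software marked 5 Gpi1 spots as outliers among the replicate spots, 2 of them on DIO 3, and 0 Gamt spots. On the log2 scale the median SD over spots was 0.11 for Gpi1 and 0.09 for Gamt. The SD between animals of a group, pooled over the groups, was 0.73 for Gpi1 and 0.51 for Gamt, which is 6.57 and 5.55 times as large. The pooled values hide differences between groups: treated Gpi1 had an SD of 0.24 between animals against 0.11, 0.13 and 0.16 over the spots of its arrays, and the spots of Gpi1 on DIO 3 had an SD of 0.37. Among all probes tested the median of that SD was 0.63, and 60.0% of probes had a smaller one than Gpi1 and 34.7% a smaller one than Gamt.

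For comparison between groups log2(intensity + 1) was quantile normalized, which gives all 9 arrays the same distribution. Normalized Gpi1 averaged 6.29 ± 0.73 (SD, n = 3) in vehicle, 6.14 ± 1.00 in DIO and 5.14 ± 0.24 in DIO+sitagliptin. The order of the means was vehicle, DIO, then DIO+sitagliptin. The step from vehicle to DIO was smaller than the SD of either group, and the step from DIO to DIO+sitagliptin was about the SD of DIO. Normalized Gamt averaged 6.58 ± 0.35 in vehicle, 6.89 ± 0.27 in DIO and 6.62 ± 0.76 in DIO+sitagliptin. Its means followed the order DIO, DIO+sitagliptin, then vehicle, and no neighbours in that order differed by more than the larger of their SDs. Treated Gamt had the widest spread of the 3 groups and treated Gpi1 the narrowest. The treated Gpi1 readings were not separated from background, which limits what their spread can show.

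**Figure D2:**
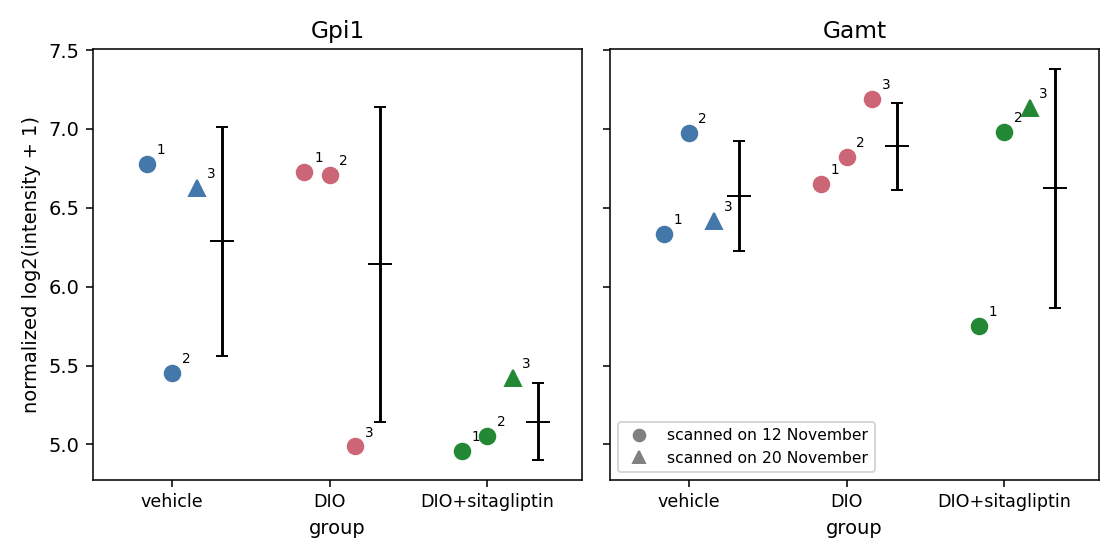
Normalized log2(intensity + 1) of Gpi1 (left) and Gamt (right) by group, 1 point per animal with its replicate number and a shape for the scan date, and the group mean with its SD as a bar. Treated Gpi1 (mean 5.14) is tightly grouped beside DIO 3, at readings not separated from background. Treated Gamt (mean 6.62) is split between 1 low and 2 high animals.

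The high-fat diet question sets DIO against vehicle. Gpi1 differed by -0.15 ± 0.55 (SE, n = 3 per group) on the log2 scale, where the median of all 49360 tested probes was 0.05. Its sign rested on single arrays. Without DIO 3 the difference was 0.43, without vehicle 1 it was 0.10 and without vehicle 3 it was 0.03, while without vehicle 2 it was -0.56. Among the arrays of 12 November, 3 DIO against 2 vehicle, it was 0.03, and no DIO array was scanned on 20 November.

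Gamt differed by 0.31 ± 0.46 between DIO and vehicle, a value that changed sign to -0.14 when the arrays were scaled by their medians alone. The median of all probes moved to -0.10 under that scaling, and Gamt relative to it was -0.04. It was 0.23 among the arrays of 12 November, and it ran from 0.16 without DIO 3 to 0.51 without vehicle 2. Both genes overlapped between the groups, which were apart in either direction for 7.41% of probes. In this comparison limma called neither gene at an adjusted p under 0.05 and called 0 of 49360 probes, a background of 0%. An unadjusted p under 0.05 was reached by 354 of these probes, fewer than the share of 0.05 that evenly spread p-values would give.

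The drug question sets DIO+sitagliptin against DIO. Gpi1 differed by -0.997 ± 0.546 on the log2 scale, where the median of all probes was -0.05. The treated arm and DIO 3 read 0.93 to 1.04 times the highest NEGATIVE probe, so the value is not separated from background on that side and gives no exact fold. The groups, which were apart in either direction for 3.32% of probes, overlapped for Gpi1, because DIO 3 at 4.99 lay below DIO+sitagliptin 2 at 5.05 and DIO+sitagliptin 3 at 5.42. The size moved with each DIO array left out: without DIO 3 the difference was -1.57, while without DIO 1 it was -0.70 and without DIO 2 it was -0.71. Among the arrays of 12 November, 3 DIO against 2 treated, it was -1.14.

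Gamt differed by -0.27 ± 0.46 with the drug, and the value became 0.02 when the arrays were scaled by their medians alone. It turned to 0.17 without DIO+sitagliptin 1, the dimmest array of this gene, and to -0.52 without DIO+sitagliptin 3, the brightest treated one. The array DIO+sitagliptin 1 was also the only one with a scan hour of 18 rather than 16 among those of 12 November. Its median intensity (37.6 units) and its highest NEGATIVE probe (48.6 units) were the brightest of the 9 arrays. The part of these in its readings was not tested. The 3 DIO arrays lay inside the range of the treated ones before normalization. limma called neither gene and 0 of 49360 probes here, a background of 0%. The 114 probes at an unadjusted p under 0.05 were also fewer than a share of 0.05.

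Treated mice were also set against vehicle mice. Gpi1 differed by -1.14 ± 0.55, with the treated arm again at 0.93 to 1.03 times the highest NEGATIVE probe, so that here too no exact fold is given. All 3 treated values lay below all 3 vehicle values, by a margin of 0.03 between DIO+sitagliptin 3 at 5.42 and vehicle 2 at 5.45. The groups were apart in that direction for 1.71% of the 49360 probes, and in either direction for 4.04%. That separation changed with the scaling. Without any normalization the margin was 0.27. With median scaling the groups overlapped by 0.39, because DIO+sitagliptin 3 then stood at 5.86 and vehicle 2 at 5.47. The mean difference kept its sign, at -1.07 without normalization and -1.35 with median scaling. Split by scan date, the normalized arrays gave -1.11 for 2 against 2 arrays of 12 November and -1.21 for the single pair of 20 November. These parts make up the difference of -1.14 and are no separate check on it. This comparison shares its treated arrays with the one before and its vehicle arrays with the diet comparison, so the 3 differences of a gene are not independent.

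Gamt differed by 0.05 ± 0.46 between treated and vehicle mice, and by -0.11 with median scaling, which put the median of all probes at -0.09 and Gamt relative to it at -0.02. Its values by scan date had opposite signs, -0.29 on 12 November and 0.71 for the pair of 20 November, where vehicle 3 read 77.0 and DIO+sitagliptin 3 read 152.2 units. Leaving out single arrays moved the difference between -0.21 (without DIO+sitagliptin 3) and 0.48 (without DIO+sitagliptin 1). limma called neither gene and 0 of 49360 probes in this comparison, a background of 0%. The 713 probes at an unadjusted p under 0.05 were again fewer than a share of 0.05.

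**Figure D3:**
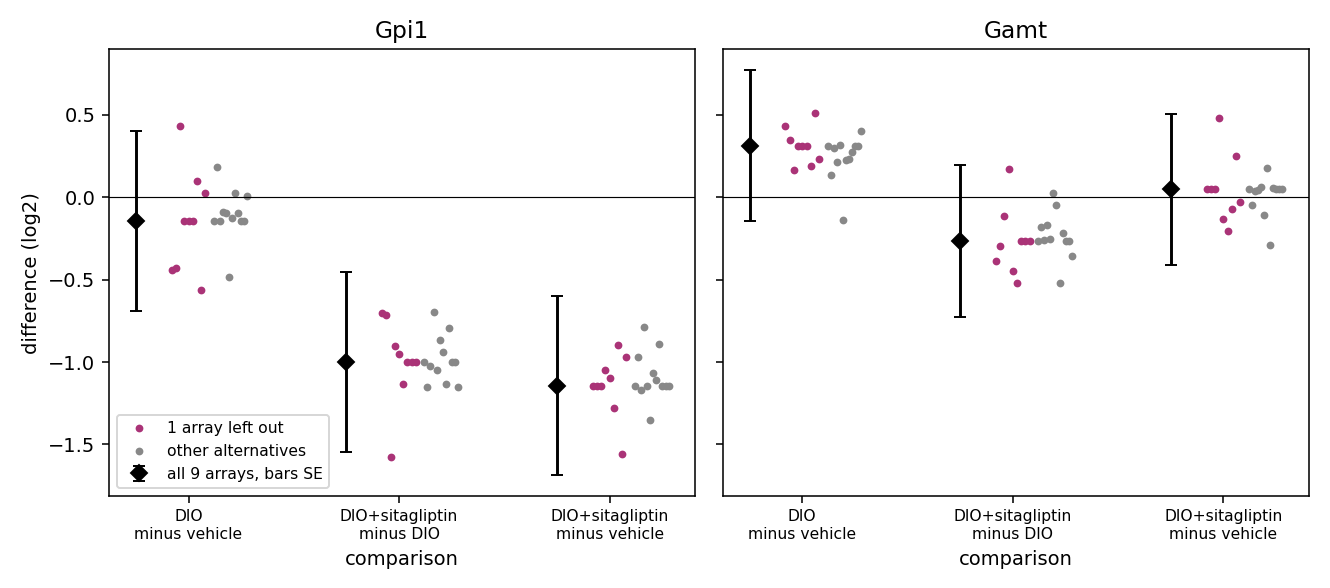
Difference on the log2 scale of Gpi1 (left) and Gamt (right) in the 3 comparisons: the value from all 9 arrays with its SE (black), values with 1 array left out (purple) and values under other processing or models (grey). Gpi1 stays below 0 in both comparisons that involve the drug and crosses 0 for DIO minus vehicle, and Gamt crosses 0 in all 3.

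The place of each gene among all probes of the same array nearly restates its quantile-normalized level, which is set by that rank. It is therefore no separate check on the normalization. Gpi1 was brighter than 80.8%, 66.3% and 79.6% of probes on vehicle 1, 2 and 3. The shares were 80.4%, 80.2% and 58.7% on DIO 1, 2 and 3. They were 57.3%, 59.2% and 65.8% on DIO+sitagliptin 1, 2 and 3. The treated places were below the vehicle ones, with 65.8% next to 66.3%, and DIO 3 was among the treated. On every array the highest NEGATIVE probe was brighter than the median spot. Gpi1 read 0.93 to 1.04 times that probe on DIO 3 and the treated arrays, so its places there are about those of background. Gamt was brighter than 77.1% to 82.1% of probes in vehicle, 79.8% to 83.5% in DIO and 70.8% to 83.1% in DIO+sitagliptin.

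The ratio of the Gpi1 to the Gamt probe within an array needs no scaling between arrays. Since probes bind differently, only its change from array to array can be read, not which transcript was more abundant. On vehicle 1, 2 and 3 the ratio was 1.41, 0.348 and 1.15. On DIO 1, 2 and 3 it was 1.06, 0.920 and 0.281. In DIO+sitagliptin 1, 2 and 3 it was 0.683, 0.300 and 0.201. On the treated arrays and on DIO 3 the Gpi1 reading in this ratio was not separated from background. The treated ratios overlapped those of vehicle 2 and DIO 3, which had low Gpi1 and high Gamt. The mean log2 ratio was -0.27 ± 1.09 (SD, n = 3) in vehicle, -0.62 ± 1.05 in DIO and -1.53 ± 0.90 in DIO+sitagliptin, steps that are no larger than about the spread within the groups.

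Both genes followed different patterns over the animals. Their normalized levels had a Pearson r of -0.19 over the 9 arrays and of -0.07 over the 7 of 12 November. Before normalization it was -0.35 over the 9 arrays. The genes with a symbol whose levels were most like those of Gpi1 over the 9 arrays were Lhfp (r = 0.84), Apoe (r = 0.79), which encodes a lipid-carrying apolipoprotein, and H2-M2 (r = 0.76), a class Ib histocompatibility gene. Over the 7 arrays of 12 November their r was 0.87, 0.77 and 0.92. Before normalization it was 0.73, 0.88 and 0.58 over the 9 arrays. The least alike over the 9 arrays was Cep41 (r = -0.45, and -0.49 over the 7), which never exceeded the highest NEGATIVE probe. Over the 7 arrays Il2, the T-cell growth factor, named after its values were seen, was further from Gpi1 (r = -0.88). Over the 9 arrays the r of Il2 was -0.26, and 0.13 before normalization. For Gamt they were Chgb (r = 0.93), a protein of secretory granules, Olfr22-ps1 (r = 0.69), an olfactory receptor pseudogene, and Tm9sf1 (r = 0.56). Their r over the 7 arrays was 0.94, 0.93 and 0.53, and before normalization over the 9 arrays it was 0.71, 0.68 and 0.50. Olfr22-ps1 never exceeded the highest NEGATIVE probe and Chgb did so on 3 of the 9 arrays. The points of each r come from the same arrays and scan dates, and share their normalization where it was applied. These genes were picked as extremes among 39. On DIO 3 and the treated arrays the Gpi1 level was not separated from background.

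A further glycolytic enzyme, Gapdh, appears on the array as control features named Mouse-GAPDH_3 and Mouse-GAPDH_5, 10 spots each, which were matched to the gene by that name alone. Gapdh oxidizes glyceraldehyde phosphate further down the route that Gpi1 feeds. Mouse-GAPDH_3 read 107.5, 150.0 and 91.3 units in vehicle 1, 2 and 3. In DIO 1, 2 and 3 it read 108.0, 161.4 and 97.6 units. In DIO+sitagliptin 1, 2 and 3 it read 52.8, 135.8 and 64.5 units. The vehicle and DIO ranges nearly coincided, and treated arrays 1 and 3 were the dimmest of the 9. Mouse-GAPDH_5 read 302.9, 152.5 and 509.2 units in vehicle. It read 331.8, 119.5 and 87.8 units in DIO and 120.9, 96.3 and 216.4 units with the drug. Its dimmest arrays, DIO 3 and DIO+sitagliptin 2, were also dim in Gpi1, but the next dimmest, DIO 2 at 119.5 units, was bright in Gpi1. The dimmest array in Gpi1, DIO+sitagliptin 3, read 216.4 units here, above vehicle 2.

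The 2 GAPDH features did not move together, and their log2 ratio, Mouse-GAPDH_3 over Mouse-GAPDH_5, ran from -2.47 on vehicle 3 to 0.49 on DIO+sitagliptin 2. The ratio stood at -1.49, -2.47 and -1.61 on vehicle 1, vehicle 3 and DIO 1, which were bright in Gpi1, but at 0.43 on DIO 2, which was bright as well. On the other arrays it was -0.02 on vehicle 2, 0.15 on DIO 3, and -1.19, 0.49 and -1.73 on the treated arrays. With this ratio as a covariate the Gpi1 difference was -1.15 ± 0.51 for DIO+sitagliptin against DIO and -0.97 ± 0.51 against vehicle. For DIO against vehicle it turned from -0.15 to 0.18.

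**Figure D4:**
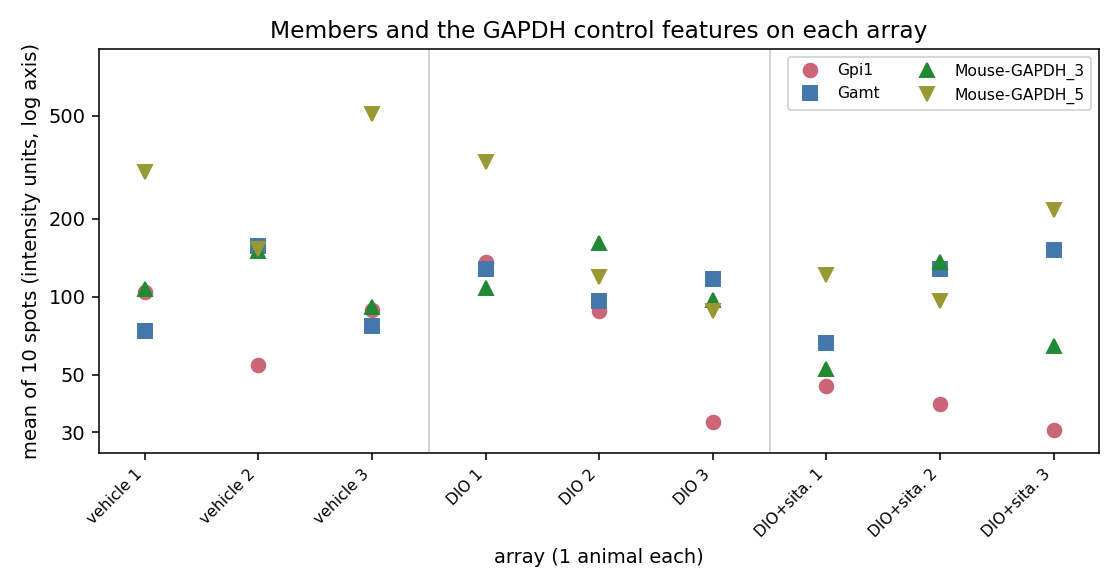
Mean intensity over 10 spots (log axis, arbitrary units) of Gpi1, Gamt and the control features Mouse-GAPDH_3 and Mouse-GAPDH_5 on each array, with grey lines between the groups. Within its own series Gpi1 runs from 30.6 units on DIO+sitagliptin 3 to 135.9 on DIO 1, and Mouse-GAPDH_5 from 87.8 on DIO 3 to 509.2 on vehicle 3.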

How the data were processed

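Each deposited file holds the spots of 1 one-colour array, as Cy3 intensity. Per the file headers, the authors read it with Agilent Feature Extraction (version 11.0.1.1), which subtracted background and detrended over the array, and no step between arrays is recorded. The submitters' processing notes name the same software. GEO types the series as sequencing. The deposited flags for spots well above background, outlying or saturated were used as other values. The headers name the mm9 build and the reference here is GRCm38.p6, so no coordinates are given. Accessions of 50 probes with 10 spots matched RefSeq for 46 and GENCODE for 3, and 1 matched neither. Other probes were not looked up.

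Intensities became log2(intensity + 1), which understates changes of dim probes; spots of a probe were averaged and arrays quantile normalized. Probes with at least 0.5 of their spots well above background on at least 3 arrays were tested (49360, 40 with a symbol). Group coefficients came from limma 3.58.1 (R 4.3.3), fitted to the 9 arrays at once with an intensity trend, Benjamini-Hochberg adjustment over all probes and a threshold of 0.05. The fit was tested on simulated data. Python 3.11.15 with matplotlib 3.10.9 made the tables and plots. The number of arrays limits the precision.

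The members, the lists and the rule for named genes (the 3 genes most like each member, the 1 least like it, and listed genes with a symbol) were chosen with earlier results of these data known. The gene least like Gamt is not reported here. The control features entered no comparison except as a covariate. Alternatives covered normalization, intensity column, pseudocount (16), spot summary, detection filter, arrays in the fit, each array left out, replicate block, scan date and the GAPDH ratio. Median pixel signal and the block within 6 arrays were added after seeing the data.

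Replicates are separate mice, per the series' design text. Groups share replicate numbers in the labels. Between DIO+sitagliptin and vehicle, arrays of the same number deviated from their group means together (r = 0.67, 0.65 and 0.76 across probes). Every pair was over 0.1, and the numbers were used as a block in alternative fits. No label pairs the mice. In both of these groups number 3 also has its own scan date. Deviations within a group cancel out, so that date alone can make every r positive. Arrays of unlike number were not compared, and whether the mice are paired was not tested. Pairs with DIO ran from -0.34 to 0.34.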

Additional observations from a re-analysis of the deposited data

Results flagged for a closer look

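Control features that enter no comparison between groups except as a covariate read above the highest NEGATIVE probe. The Mouse-GAPDH_3 features were on average brighter than it throughout the 9 arrays, with a lowest ratio of 1.09 on DIO+sitagliptin 1. The Mouse-GAPDH_5 features were brighter too, with a lowest ratio of 2.49, also on DIO+sitagliptin 1. On that array Mouse-GAPDH_3 averaged 52.8 units next to a highest NEGATIVE spot of 52.0, so it was hardly separated from background there.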

How the results depend on the processing

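Several of the 21 alternatives leave a difference unchanged by design. These are the fit to the 6 arrays compared, the replicate blocks and leaving out an array of the group not compared. The scan date term also leaves DIO+sitagliptin against vehicle unchanged. Over all 21 the Gpi1 difference stayed below 0 for DIO+sitagliptin against DIO (-1.57 to -0.70) and against vehicle (-1.56 to -0.79). For DIO against vehicle it ran from -0.56 to 0.43 and was above 0 in 6 alternatives. Gamt ran from -0.14 to 0.51 for DIO against vehicle (1 change of sign), from -0.52 to 0.17 for DIO+sitagliptin against DIO (2) and from -0.29 to 0.48 against vehicle (7). Leaving out 1 array at a time gave, for Gpi1, -0.56 to 0.43, -1.57 to -0.70 and -1.56 to -0.90 in the 3 comparisons, and for Gamt 0.16 to 0.51, -0.52 to 0.17 and -0.21 to 0.48. The counts of probes called by limma were 0 in all 22 alternatives of each comparison. Unadjusted p-values under 0.05 were reached by 46 to 2350, 16 to 1132 and 291 to 5203 probes. These exceeded a share of 0.05 only in some alternatives of DIO+sitagliptin against vehicle. Without normalization the median difference over all probes moved to 0.26 for DIO against vehicle and 0.19 for DIO+sitagliptin against vehicle, and relative to these the Gpi1 differences were -0.39 and -1.26. The replicate block cannot move the Gpi1 difference between DIO+sitagliptin and vehicle from -1.14, since every group holds each replicate number. With the block its SE was 0.56 over 9 arrays and 0.35 within the 6 arrays of both groups, and no call changed. A column of mean signal was planned and not run, since the files used here hold the median pixel signal, which gave -0.70 and -0.79 for Gpi1 in the comparisons with the drug. Signal at the NEGATIVE probes limits what the dim Gpi1 readings can show.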
